A study of Mus musculus with 8 samples.

Results

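In tumours formed by Hepa1-6 cells, an established mouse hepatoma line, 5171 of 34499 hepatoma cells were taken as cells with a programme of Ppbp, Plekhs1, Anxa1, Tff2, Ccdc80 and Igfbp6, and are called programme-high cells here. Hepatoma cells were cells of the deposited table whose mean value of Krt8, Afp and Alb was at least 1 and whose mean value of the T-cell and myeloid genes Cd3g, Trbc2, Tyrobp and Fcer1g was below 0.5. They were 34499 of 53528 cells. The programme-high cells were the 15% of hepatoma cells in each cell set with the highest mean of the 6 genes. They were compared with the other 29328 hepatoma cells, within each set. The 6 genes therefore chose the cells, and their own values are given as a description.

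Dissociated tumours were profiled in droplets, with single-cell libraries of transcript 3′ ends. Its 4 groups were tumours of unedited cells or of cells edited at Soat1, each in animals injected intraperitoneally with PBS or with a PD-1 antibody, each group having a cDNA and an oligo entry. The edit is a knockout in the titles and a knockdown in the genotype field. All groups shared the Hepa1-6 line as their source, and whether the edited cells were 1 clone is not given in the sources used here. By the last number of its name each cell belongs to 1 of 6 sets, and nothing ties a set to a group. No genotype or treatment was therefore compared, the table was treated as 1 pooled sample, and no p-value is given.

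Hepatocytes are the secretory epithelial cells of the liver and release albumin, fibrinogen, apolipoproteins and many other plasma proteins. Liver tumour cells keep part of this output and can lose it while they take up genes of bile duct, progenitor or injured epithelium. Trefoil factors such as Tff2 and Tff1 are small secreted peptides of mucous epithelia, made in quantity by stomach and in injured mucosa. Ppbp encodes a chemokine precursor known from platelets, and Anxa1 a phospholipid-binding protein with anti-inflammatory effects on leukocytes.

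The sets held 7569 to 11813 cells, of which 48.4% to 77.7% met the definition of a hepatoma cell. They gave 1092, 753, 1244, 565, 862 and 655 programme-high cells in sets 1 to 6. The lowest score of a programme-high cell ranged over the sets from 0.611 in set 1 to 0.718 in set 6, and the highest score of another hepatoma cell in these sets was 0.611 and 0.718, so no gap in the score separated the cells. Scores just inside and just outside differed by less than 0.01 in every set. Had the value of set 1 been used throughout, 15% to 22% of the hepatoma cells of a set would have been taken.

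Set 1 values are the natural log of 1 plus UMIs (unique molecular identifiers, which count captured transcripts) per 10000, from which the UMIs were recovered. In set 1 the programme-high cells had a median of 20111.5 UMIs (1007 to 261833) and the other hepatoma cells 14383. Levels in CPM (UMIs of a gene per 1000000 UMIs of the class) and ratios are given for this set alone. Sets 2 to 6 had been altered by a step that is not recorded and hold values below 0, so for them, as for all sets together, differences of mean values are given in natural log units. These cannot be read as fold changes.

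The definition let in cells with genes of other cell types. Of the programme-high cells, 439 (8.49%) had a mean of at least 1 of the fibroblast genes Col1a1, Col1a2, Col3a1 and Dcn, against 273 of the other hepatoma cells (0.931%). The share over the sets was 3.85%, 3.19%, 12.5%, 13.1%, 6.96% and 12.7%, and was lowest in sets 1 and 2. These fibroblast-marked cells had a median of 7663 UMIs in set 1, against 20826.5 in the unmarked programme-high cells, and a median Krt8, Afp and Alb mean of 1.55 against 2.95. They had mean values of 2.09 for Anxa1, 1.78 for Ccdc80 and 1.84 for Igfbp6, against 0.728, 0.910 and 0.953 in unmarked programme-high cells. Tff2, Ppbp and Plekhs1 were low in them, at 0.297, -0.01 and 0.017, against 1.90, 0.259 and 0.62. The name by Ppbp, Tff2 and Plekhs1 thus describes the unmarked cells and not the fibroblast-marked ones. These genes took part in choosing the cells, so their means in unmarked cells follow from the choice.

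In the comparison cells the excess was of another kind. A mean of at least 1 of the macrophage genes C1qa, C1qb, C1qc and Lyz2 was found in 2478 of the other hepatoma cells (8.45%) and in 28 programme-high cells (0.541%). By set, the share in other hepatoma cells ranged from 5.88% in set 1 to 17.4% in set 4. T-cell genes (Cd3d, Cd3g, Trac and Cd8a) marked 2 programme-high and 174 other cells by the same measure. A second choice, made after these values were seen, left out every hepatoma cell marked by any of the 3 gene groups and again took the top 15% of each set. It gave 4665 re-chosen cells, 4623 of them programme-high by the first choice, which is 99.1% of the re-chosen and 89.4% of the first. Values from the re-chosen cells stand beside others that differ in call or by more than 1.5 times, though not in every case.

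In programme-high cells Tff2 had the highest mean of the 6 genes in every set. Its mean value in sets 1 to 6 was 1.75, 1.82, 1.69, 1.80, 1.78 and 1.79 in programme-high cells, and 0.417, 0.424, 0.481, 0.475, 0.507 and 0.493 in other hepatoma cells. In the other hepatoma cells of sets 1, 2 and 3 Igfbp6 was higher than Tff2, at 0.467, 0.486 and 0.511. The level of Tff2 is given next. In set 1 Tff2 had 778 against 86.7 CPM, a ratio of 8.97. Its 95% exact Poisson interval of 8.77 to 9.18 covers counting error only, as do all intervals of ratios below. Cells of set 1 that failed the T-cell and myeloid limit, taken here as immune cells that should lack the gene, had 32.7 CPM. Both hepatoma classes were above the level in these cells, and Tff2 was the highest of the 6 genes in 59.9% of programme-high cells of set 1.

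Plekhs1, which encodes a pleckstrin homology domain protein, averaged 0.517, 0.560, 0.576, 0.578, 0.620 and 0.611 in programme-high cells of sets 1 to 6, and 0.099 to 0.151 in the others. In set 1 it had 99.3 against 20.9 CPM. Ppbp was the lowest of the 6, with means of 0.226, 0.232, 0.269, 0.123, 0.285 and 0.228, and 0.041 to 0.059 in the others. Its level in set 1 was 44.7 against 7.94 CPM, with 3.45 CPM in the immune cells. Set 4 had the lowest Ppbp mean in programme-high cells. Both genes took part in choosing the cells, so their higher means follow from the choice.

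Ppbp is also a platelet gene, so platelet markers were read beside it. Of 14 platelet and megakaryocyte markers listed, 5 were in the table, and none was higher or lower in all 6 sets. Their summed level in set 1 was 8.92 CPM in programme-high and 8.91 CPM in other hepatoma cells. Pf4, another platelet chemokine, had 3.35 against 4.90 CPM and Alox12 had no UMI in programme-high cells of set 1. Clec1b had 0.599 against 1.33 CPM and Nrgn 0.775 against 0.936 CPM. Gng11 went the other way, with 4.19 against 1.58 CPM, and had 303 CPM in fibroblast-marked cells. After the second choice Gng11 had 0.799 against 0.969 CPM. Clec1b then had 0.399 against 0.349 CPM, with an interval of the ratio from 0.532 to 2.25. Among the re-chosen cells and their comparison Pf4 had 3.27 against 2.71 CPM, with an interval of the ratio from 0.946 to 1.53, and the summed level was 5.23 against 5.11 CPM. Over the sets the mean value of the 5 markers was 0.0109 to 0.0206 in programme-high cells and 0.0148 to 0.0379 in the others. After the second choice it was 0.00616 to 0.00909 in the re-chosen cells and 0.00733 to 0.0131 in their comparison.

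Anxa1 averaged 0.692, 0.709, 0.951, 0.884, 0.920 and 0.918 in the sets in turn, against 0.140 to 0.188 in the other hepatoma cells. In set 1 it had 133 against 24.3 CPM. The immune cells of that set had 35.6 CPM of Anxa1, above the level in other hepatoma cells. Ccdc80, a secreted matrix-associated protein, averaged 0.905 to 1.04 against 0.199 to 0.300. Igfbp6, a binding protein of insulin-like growth factors, averaged 0.919 to 1.12 against 0.376 to 0.511 and had the smallest ratio in set 1, 1.85 (182 against 98.3 CPM). The ratios of Anxa1 and Ccdc80 in set 1 were 5.49 and 3.93. Among the re-chosen cells they were 5.17 and 3.74, and in cells marked by fibroblast genes the levels were 708 CPM for Anxa1 and 526 CPM for Ccdc80.

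**Figure D1:**
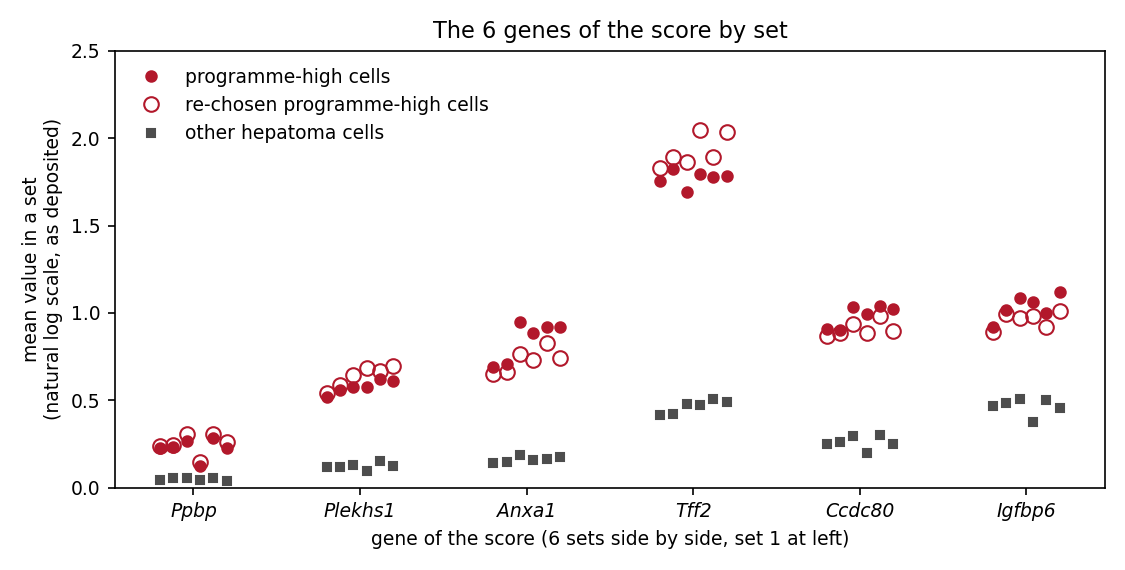
Mean deposited value (natural log scale, vertical axis) of the 6 genes of the score in each of the 6 sets, side by side for each gene. Filled circles are programme-high cells, open circles the re-chosen ones and grey squares the other hepatoma cells. In programme-high cells Tff2 is the highest gene in every set, between 1.69 and 1.82, and Ppbp the lowest.

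The number of the 6 genes with a UMI varied among the cells. In set 1, all 6 had one in 14.9% of programme-high cells and in 1.07% of other hepatoma cells. No programme-high cell had a UMI of fewer than 2 of the genes, and 18.2% of the other cells had a UMI of none. A cell without a UMI of a gene may still express it, so these are shares of detection. Cells were then thinned to 5000 UMIs, which left out 79 programme-high, 1021 other hepatoma and 1097 immune cells. Only 796 immune cells were kept, so their thinned shares describe the deeper immune cells. After thinning, Tff2 was detected in 75.1% of programme-high cells (95% exact binomial interval 72.3 to 77.8), 24.4% of other hepatoma cells and 13.6% of immune cells. Without thinning the shares were 91.5%, 50.7% and 14.7%. For Ppbp the thinned shares were 14.2%, 3.34% and 1.01%, and for Plekhs1 31.5%, 8.97% and 3.64%. When the cells were thinned first and chosen afterwards, 705 of 927 chosen cells (76.1%) were programme-high by the full counts.

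The promoter windows of Ppbp and Anxa1 are shown because both genes name the programme and both windows hold a TATA box. They run from 250 bases before to 50 after the RefSeq start (GRCm38.p6), read 5′ to 3′ on the gene's strand. Capitals mark matches on either strand to 4 short motifs chosen with the results known. They are the TATA box, spelled TATAAA, the motif of AP-1 factors, TGANTCA, that of C/EBP factors, TTGCNNAA, and an HNF1 half-site, GTTAAT. No marked matches share bases.
Ppbp, chr5:90768268-90768567, plus strand: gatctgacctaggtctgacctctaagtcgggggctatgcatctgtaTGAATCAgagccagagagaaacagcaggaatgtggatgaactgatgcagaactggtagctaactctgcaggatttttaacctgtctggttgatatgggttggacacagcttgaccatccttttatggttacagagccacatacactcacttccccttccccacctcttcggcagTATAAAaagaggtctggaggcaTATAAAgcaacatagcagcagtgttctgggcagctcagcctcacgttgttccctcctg
Anxa1, chr19:20390622-20390921, minus strand: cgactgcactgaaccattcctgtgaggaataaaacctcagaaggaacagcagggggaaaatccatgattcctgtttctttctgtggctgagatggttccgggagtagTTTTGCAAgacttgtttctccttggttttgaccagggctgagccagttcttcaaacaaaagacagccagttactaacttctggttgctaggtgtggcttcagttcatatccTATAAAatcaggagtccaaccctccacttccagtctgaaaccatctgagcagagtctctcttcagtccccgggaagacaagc
The Ppbp window held 2 TATA boxes and an AP-1 match, and that of Anxa1 a TATA box and a C/EBP match. Of the 6 genes of the score, 4 had a window, and TATAAA was in those of Anxa1, Igfbp6 and Ppbp. It was in 13.6% of all 32851 mouse windows, TGANTCA in 7.81%, TTGCNNAA in 10.8% and GTTAAT in 7.10%. A match is a description of the letters and not a site.

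Each gene of the score was in turn kept out of the choice. The 6 genes had been put together with results of these data known, so the values describe the choice and support nothing. Programme-high cells were chosen again by the mean of the other 5 genes, and the gene left out was then compared. The median difference over the 6 sets was 0.56 natural log units for Tff2 (0.49 to 0.63 over the sets), 0.50 for Ccdc80 (0.40 to 0.54), 0.45 for Anxa1 (0.35 to 0.49), 0.31 for Plekhs1 (0.26 to 0.35), 0.27 for Igfbp6 (0.19 to 0.47) and 0.12 for Ppbp (0.06 to 0.16). In set 1 the ratios of the genes left out were 3.37 for Anxa1, 3.02 for Plekhs1, 2.87 for Ppbp, 2.69 for Ccdc80, 2.58 for Tff2 and 1.31 for Igfbp6. Re-chosen cells gave medians of 0.66, 0.41, 0.39, 0.34, 0.20 and 0.14 for Tff2, Ccdc80, Anxa1, Plekhs1, Igfbp6 and Ppbp. With the gene itself in the score, the medians of the first choice were 1.31 for Tff2, 0.74 for Ccdc80, 0.73 for Anxa1, 0.46 for Plekhs1, 0.55 for Igfbp6 and 0.18 for Ppbp.

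Outside these genes and those of the definition, a gene was called higher or lower where its difference passed 0.1 natural log units in the same direction in all 6 sets. Of 1987 genes, 128 were higher in programme-high cells (6.44% of genes tested) and 60 lower (3.02%). Among the re-chosen cells 132 were higher (6.64%) and 55 lower (2.77%), and 110 higher and 42 lower genes were called by both choices. The counts of called genes in the lists below are to be read against these shares. In set 1, 443 of 1875 genes with at least 20 UMIs had a ratio of at least 1.5 (23.6%) and 506 had at most 1/1.5 (27%). For the re-chosen cells these were 253 of 1822 genes (13.9%) and 460 (25.2%).

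Of the named genes, Ly6a, Ccnd1, Sparc and Anxa3 had the highest median differences. Ly6a, also called Sca-1 and known as a stem and progenitor surface protein and interferon target, differed by 0.67 to 0.91 over the sets (median 0.79). It had 268 CPM in programme-high cells of set 1, 69.6 CPM in other hepatoma cells (ratio 3.86) and 288 CPM in immune cells, which use the gene themselves. Ccnd1, the cyclin that drives entry into the cell cycle from G1, differed by 0.66 to 0.84 (median 0.71), with 697 against 317 CPM and 77.7 CPM in immune cells. Anxa3, a second annexin, differed by 0.44 to 0.60, with 283 against 144 CPM. The re-chosen cells gave medians of 0.66, 0.79 and 0.48 for these 3 genes.

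Tff1, the companion trefoil factor, was among the 25 highest genes and had a mean of 0.514, 0.520, 0.404, 0.546, 0.425 and 0.506 in programme-high cells of sets 1 to 6 and of 0.160 to 0.195 in other hepatoma cells. Its ratio in set 1 was 4.73 (4.53 to 4.93), from 161 against 34.1 CPM, and immune cells had 26.0 CPM. Others of these genes were the retinoid enzymes Aldh1a1 (median difference 0.49) and Rdh10 (0.34), the protease inhibitor gene Timp2 (0.52), Fam25c (0.50), the muscle-type enolase Eno3 (0.33), Serpinb7 (0.33) and Pcolce (0.36), an enhancer of procollagen processing. Their set 1 ratios ran from 1.44 for Pcolce to 2.25 for Fam25c, and all stayed called among the re-chosen cells.

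Some fibroblast genes lost their call among the re-chosen cells. Col1a1, Col1a2, Col3a1 and Fstl1 were among the 25 highest genes, with median differences of 0.32, 0.36, 0.36 and 0.37 and set 1 ratios of 9.48, 10.4, 13.9 and 10.1. Among the re-chosen cells, for which the collagens were used to leave cells out, the medians were 0.01, -0.0033, 0.002 and 0.02 and the ratios 1.54, 1.12, 1.03 and 1.19. Sparc, a matrix glycoprotein, kept its call while its median went from 0.69 to 0.37 and its ratio from 2.01 to 1.33. Dcn, the proteoglycan decorin, also kept it at 0.26 in place of 0.53, with 60.9 against 11 CPM in the re-chosen cells and their comparison. Like the collagens, Dcn was used to leave cells out. Collagen levels in those re-chosen cells were 3.16 to 4.61 CPM, against 6138 to 10883 CPM in fibroblast-marked cells of set 1.

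All 13 fibroblast markers of the list were in the table, and 4 were higher in programme-high cells in all sets, against Dcn alone in the re-chosen cells. Over all genes tested 6.44% were higher with the first choice and 6.64% with the second. The 4 were Col1a1, Col1a2, Col3a1 and Dcn, the genes by which fibroblast-marked cells were left out. Their fall therefore follows from how the re-chosen cells were taken. Their summed level in set 1 was 678 against 69.5 CPM, and 86.6 against 32.3 CPM after the second choice. Lum and Dpt, which mark fibroblasts, had 0.182 and 0.581 CPM in the re-chosen cells. The mean of the 13 markers was 0.111 to 0.362 in programme-high cells over the sets, and 0.0365 to 0.0437 in the re-chosen ones against 0.0166 to 0.0191 in their comparison. The part of the remaining fibroblast RNA in the difference of Dcn was not tested.

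**Figure D2:**
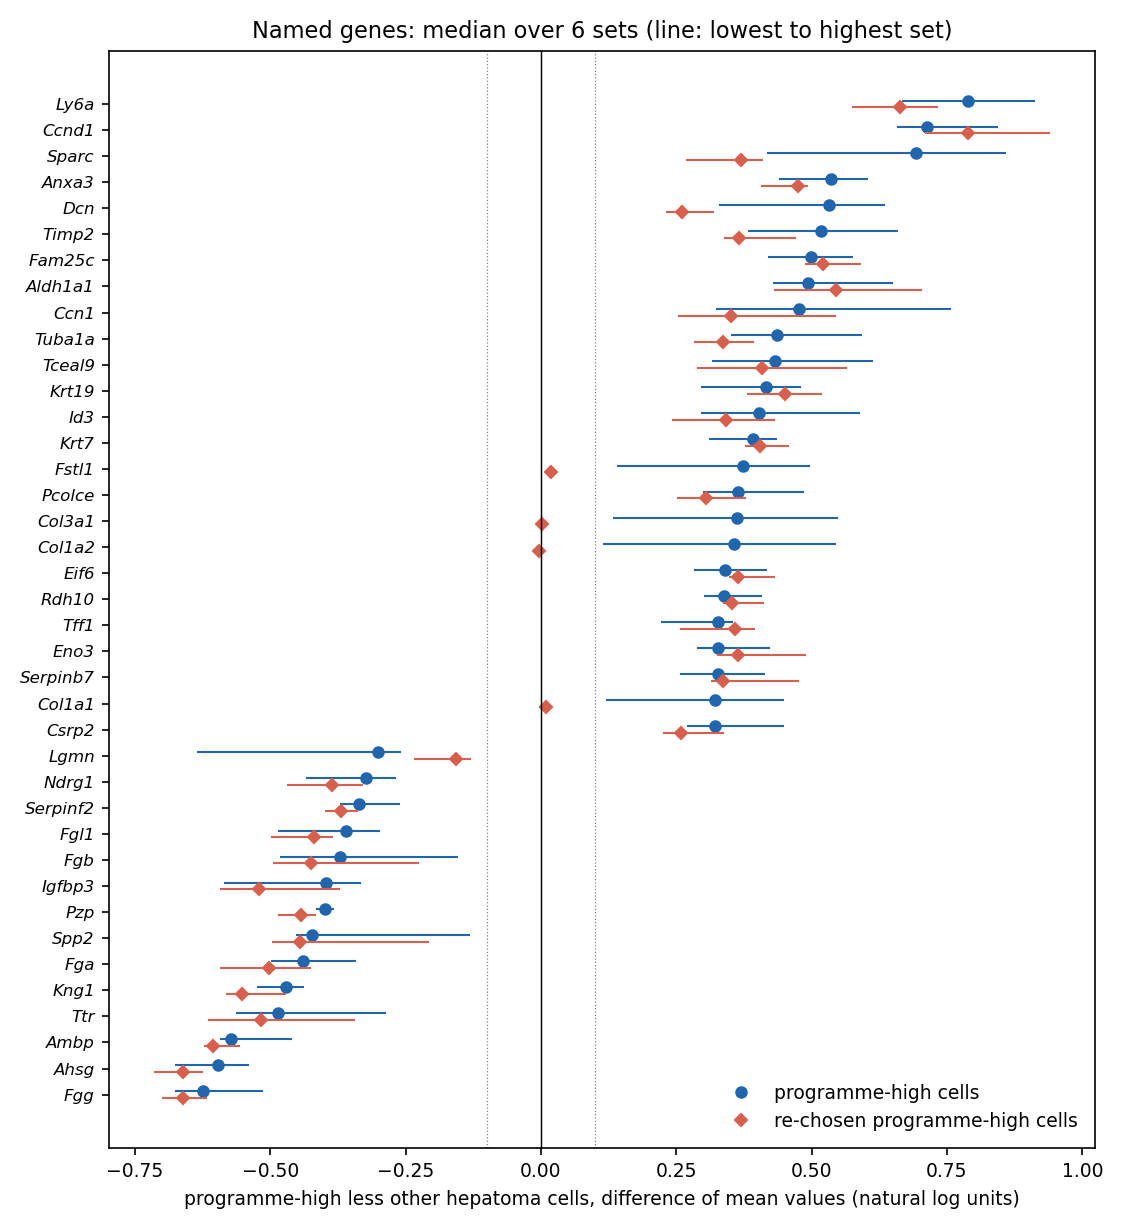
Difference of mean values (natural log units, horizontal axis) for the 25 genes with the highest median over the 6 sets and for 14 of the 15 with the lowest. Symbols are medians, lines run from the lowest to the highest set, circles are programme-high cells, diamonds the re-chosen cells, and dotted lines mark 0.1 on either side of 0. Col1a1, Col1a2, Col3a1 and Fstl1 lie near 0 among the re-chosen cells, and the lowest genes, led by Fgg and Ahsg, lie below 0 in both choices.

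Genes of mucosal and injured epithelium were listed because trefoil factors belong to such tissue. Of 17 in the table, 5 were higher in all sets and none lower, with both choices, where 6.44% and 3.02% of all genes tested were higher and lower with the first. The median log2 ratio in set 1 was 1.13, against -0.03 over all genes tested. Besides Tff1 and Ly6a the higher genes were Ly6c1, Sprr1a, a cornified envelope protein, and Krt20, a keratin of gut epithelium. Sprr1a had 198 against 89.4 CPM (ratio 2.21) and Krt20 173 against 113 CPM (1.53). Ly6c1 had 30.3 against 4.82 CPM, a ratio of 6.29, and 4.69 among the re-chosen cells.

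Of 14 biliary and progenitor genes, Krt7, Krt19 and Epcam were higher in all sets and none was lower, against 6.44% and 3.02% of all genes tested. The re-chosen cells added Cldn4. Krt19, a keratin of bile duct cells, had means of 1.00 to 1.17 in programme-high cells and 0.674 to 0.759 in the others, and Krt7 1.27 to 1.40 against 0.899 to 1.00. In set 1 Krt19 had 297 against 160 CPM, Krt7 373 against 246 and Epcam 207 against 153. Sox9, a transcription factor of bile duct and progenitor cells, was not called, with 175 against 228 CPM, and neither was Spp1, with 174 against 172 CPM. The list's median log2 ratio was 0.43, and 0.26 after the second choice. Msln, a mesothelial gene also found in tumours, had 18.8 against 3.83 CPM in set 1 and was called among the re-chosen cells, with differences of 0.10 to 0.13.

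Targets of the YAP transcriptional coactivator gave 3 higher genes of 6 and none lower: Ccn1, Ccn2 and Ankrd1. For this list and the next, the shares over all genes tested were 6.44% higher and 3.02% lower. Ccn1 differed by 0.32 to 0.76 over the sets (median 0.48). Ankrd1 had 50.6 against 22.1 CPM in set 1 and Ccn2 92.8 against 32.2 CPM, with 6.45 CPM in immune cells. Among the re-chosen cells the same 3 were called, with ratios of 2.31 for Ankrd1 and 2.35 for Ccn2. Of 34 matrix and mesenchymal genes, 5 were higher and 1 lower, and 4 and 0 after the second choice, which kept Sparc, Thbs1, Lamb3 and Itga6. Lamb3, a chain of an epithelial laminin, had 75.4 against 31.3 CPM, and Itga6, an integrin that binds laminin, 231 against 163 CPM. The median log2 ratio of this list was 1.72, and 0.03 among the re-chosen cells.

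Other groups held few called genes. Of 6 annexin and S100 genes Anxa3 and S100a11 were higher, and of 8 immediate early genes Klf2 and Klf4, where 6.44% of all genes tested were. The EGF-receptor ligand Hbegf was higher (267 against 205 CPM), as was Plat, the tissue plasminogen activator, which lost its call in the second choice. Among insulin-like growth factor genes, Igf2bp1 was higher (60.1 against 34.0 CPM) while the binding proteins Igfbp1 (3015 against 4814 CPM) and Igfbp3 (679 against 1206 CPM) were lower, opposite to Igfbp6. Of 22 chemokine and cytokine genes, Cxcl3 was higher (269 against 201 CPM) and Lcn2, an acute-phase iron-siderophore carrier, lower (24.0 against 95.7 CPM). A count of 1 higher and 1 lower is close to the 6.44% and 3.02% over all genes tested, and is no result about the chemokine and cytokine list.

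Secreted liver proteins led the lower genes. Of 43 hepatocyte genes tested, 13 were lower in all 6 sets and none higher. Among the re-chosen cells these were 15 and 0. Over all genes tested, 3.02% were lower with the first choice and 2.77% with the second. In set 1, 36 of the 43 had a ratio of at most 1/1.5 with either choice, and the median log2 ratio was -2.07. The genes were secreted plasma proteins: the fibrinogen chains Fga, Fgb and Fgg, the mineral-binding fetuin-A (Ahsg), transthyretin (Ttr), kininogen (Kng1), prothrombin (F2), hemopexin (Hpx), the vitamin D-binding protein (Gc), apolipoproteins A-I and C-I (Apoa1, Apoc1), Ambp and Itih2. Haptoglobin (Hp) and transferrin (Trf) were added among the re-chosen cells.

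Ahsg had means of 0.624, 0.656, 0.622, 0.665, 0.553 and 0.616 in programme-high cells of sets 1 to 6 and of 1.20 to 1.29 in other hepatoma cells. Its level in set 1 was 110 against 592 CPM, a ratio of 0.19, and immune cells had 75.1 CPM. Fgg had means of 1.13 to 1.21 against 1.71 to 1.85, and 372 against 1163 CPM. Neither gene's sets overlapped between the classes. Both genes were named for their low differences in all 6 sets, and the share of all genes without such overlap was not counted. Ambp (283 against 802 CPM), Ttr (168 against 554 CPM), Kng1 (100.05 against 381 CPM) and Fga (141 against 507 CPM) had ratios of 0.26 to 0.35. Fgb, the most abundant of the 15 lowest genes, had 1992 against 3493 CPM.

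Further genes among the 15 lowest were Pzp, an alpha-macroglobulin (35.4 against 190 CPM), Serpinf2, the plasmin inhibitor (72.2 against 215 CPM), and Fgl1, a fibrinogen-like secreted protein (227 against 529 CPM). Lgmn, a lysosomal protease, had 112 against 183 CPM, and 368 CPM in immune cells. Its median difference was -0.30 and, after the second choice, -0.16, which was still a call.

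Some liver genes had low mean values and very low ratios. Apoa1 had 28.9 against 202 CPM in set 1, Fabp1, the liver fatty acid-binding protein, 7.65 against 79.5 CPM and Serpina1b, an alpha-1-antitrypsin, 7.86 against 47.4 CPM. Of these, Apoa1 was called in all sets and Fabp1 and Serpina1b were not. Immune cells of the set had 29.0 CPM of Apoa1, 8.0 of Fabp1 and 8.63 of Serpina1b. For 13 of the 43 genes the re-chosen cells were at or below the level in immune cells, and for 18 they were above 2 times that level. The other hepatoma cells were above 2 times it for 42 genes and at or below it for 0. No upper limit on Krt8, Afp or Alb was set for the immune cells, which had 619 CPM of Afp and 514 CPM of Alb. Whether the re-chosen cells expressed those 13 genes at a low level can therefore not be told from these values. The Serpina1 genes among the 13 (Serpina1a, Serpina1b, Serpina1d and Serpina1e) are near-identical copies among which reads can be split.

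**Figure D3:**
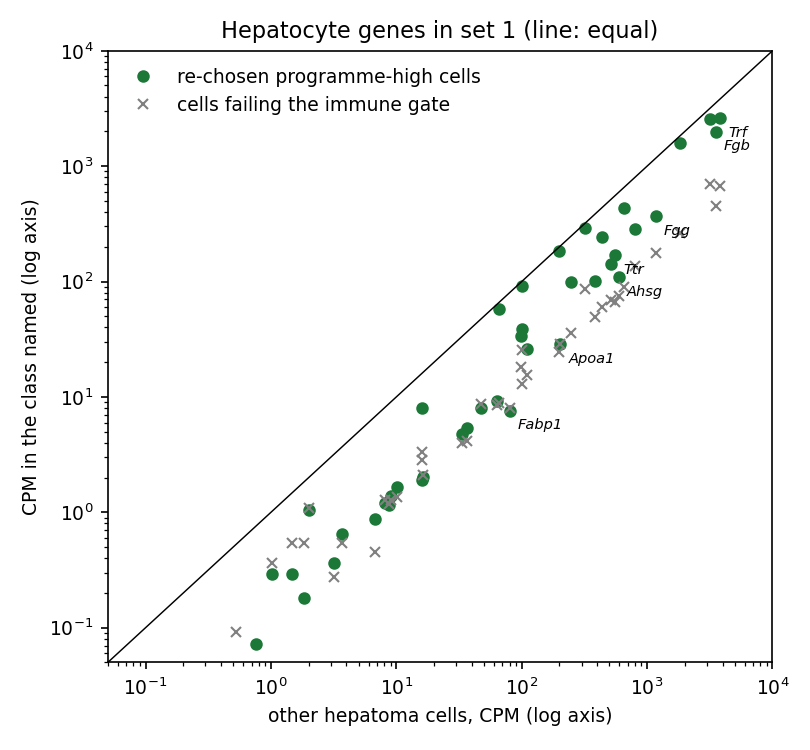
Level of hepatocyte genes in set 1, with other hepatoma cells on the horizontal axis and, on the vertical axis, re-chosen programme-high cells (green) or cells that fail the immune limit (grey crosses), in CPM on log axes, and a line of equal level. All green points lie below the line, and those of Apoa1 (28.8 CPM) and Fabp1 (7.59 CPM) lie at the grey crosses. Serpina3k, with no UMI in the re-chosen cells, is not drawn, and genes with no UMI in immune cells have no cross.

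The genes that defined a hepatoma cell did not all move alike. Afp, the fetal albumin-like protein, had 3704 CPM in programme-high and 5213 CPM in other hepatoma cells of set 1, Alb had 2480 against 3724 CPM, and Krt8, a keratin of simple epithelia, 1242 against 1130 CPM. They took part in choosing the cells as hepatoma cells and are given as a description.

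The promoter windows of Ahsg and Fgb are shown as examples of the lower genes, with the same motifs in capitals.
Ahsg, chr16:22891765-22892064, plus strand: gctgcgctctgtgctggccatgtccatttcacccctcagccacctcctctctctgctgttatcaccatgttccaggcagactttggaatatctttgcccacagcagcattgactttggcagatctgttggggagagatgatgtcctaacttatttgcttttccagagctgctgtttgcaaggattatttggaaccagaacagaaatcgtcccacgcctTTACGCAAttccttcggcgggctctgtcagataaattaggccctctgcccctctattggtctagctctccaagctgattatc
Fgb, chr3:83049814-83050113, minus strand: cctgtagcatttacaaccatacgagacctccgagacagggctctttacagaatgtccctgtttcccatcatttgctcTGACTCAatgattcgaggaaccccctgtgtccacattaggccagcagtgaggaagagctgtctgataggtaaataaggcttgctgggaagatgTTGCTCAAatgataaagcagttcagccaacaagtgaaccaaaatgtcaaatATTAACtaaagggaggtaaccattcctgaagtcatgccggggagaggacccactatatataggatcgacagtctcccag
Of the 15 lowest genes, 10 had a window. TTGCNNAA was in those of Ahsg, Fga and Fgb, and GTTAAT in those of Fga, Fgb and Pzp. Of the 25 highest genes, 15 had a window, and 1 held each of these motifs: Aldh1a1 the first and Sparc the second. TATAAA was in 4 of the 15 windows and in 1 of the 10.

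Some cell cycle genes were higher, with small ratios. Of 22 S phase genes, 4 were higher in all sets (Mcm3, Mcm7, Pcna and Rrm1), with Hells added in the second choice, and none was lower. Of 45 genes of G2 and M phase, 8 were higher, including Top2a, Mki67, Cdk1, Ube2c and Birc5, and 12 in the second choice. The share of higher genes over all genes tested was 6.44% with the first choice and 6.64% with the second. Set 1 levels were 205 against 154 CPM for Pcna, the sliding clamp of DNA polymerase, 290 against 204 CPM for Top2a and 385 against 243 CPM for Ube2c, a mitotic ubiquitin-conjugating enzyme. The median log2 ratios were 0.44 for S phase and 0.42 for G2 and M phase, against -0.03 over all genes tested. Cdkn1a, the p21 inhibitor of cyclin-dependent kinases, was lower, with 282 against 392 CPM and differences of -0.13 to -0.24.

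Genes of hypoxia went the other way in part. Of 17, Ndrg1 (295 against 630 CPM) and Bnip3 (358 against 524 CPM) were lower in all sets and the glycolytic enzyme Eno1 higher (148 against 112 CPM). Over all genes tested 3.02% were lower and 6.44% higher, so the count of 1 higher gene is no result about the list. In the re-chosen cells Egln3 was lower as well, Eno1 was not called and Aldoa was. Slc2a1, the glucose transporter of the hypoxic response, was not called, with 99.8 against 135 CPM. The list's median log2 ratio was -0.31, against -0.03 over all genes tested.

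Of 27 enzymes of xenobiotic metabolism and the NRF2 response, Aldh1a1 was higher and Hmox1 (66.2 against 117 CPM), Gclc (32.8 against 68.1 CPM) and Ugt2b34 (101 against 168 CPM) were lower, joined by Akr1c6 among the re-chosen cells. Over all genes tested 6.44% were higher and 3.02% lower, so the count of 1 higher gene is not above the background. Hmox1 is also a macrophage gene, with 148 CPM in immune cells. Of 8 sterol and fatty acid synthesis genes, Hmgcs1 was higher (226 against 197 CPM), and Sqle was also higher in the second choice.

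Interferon and antigen presentation genes depended on the comparison cells. Of 26, Gbp2, an interferon-induced GTPase, and Cxcl10, a chemokine that draws T cells, were higher in all sets and the class I gene H2-K1 was lower. With this first choice the counts are close to the 6.44% higher and 3.02% lower over all genes tested, and are no result about the list. Cxcl10 differed by 0.21 to 0.37, with 303 against 171 CPM. With the macrophage-marked and other marked cells left out, Cd74 and Cxcl9 were also higher and H2-K1 was not called. H2-K1 had 72.3 against 110 CPM with the first choice, 47.4 against 59.2 CPM with the second, and 2409 CPM in immune cells. Summed macrophage and monocyte markers of set 1, of which 8 were in the table, were 36.0 CPM in programme-high and 130 CPM in other hepatoma cells, and 28.7 against 30.6 CPM after the second choice. C1qa and C1qc were lower with the first choice and not called with the second.

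**Figure D4:**
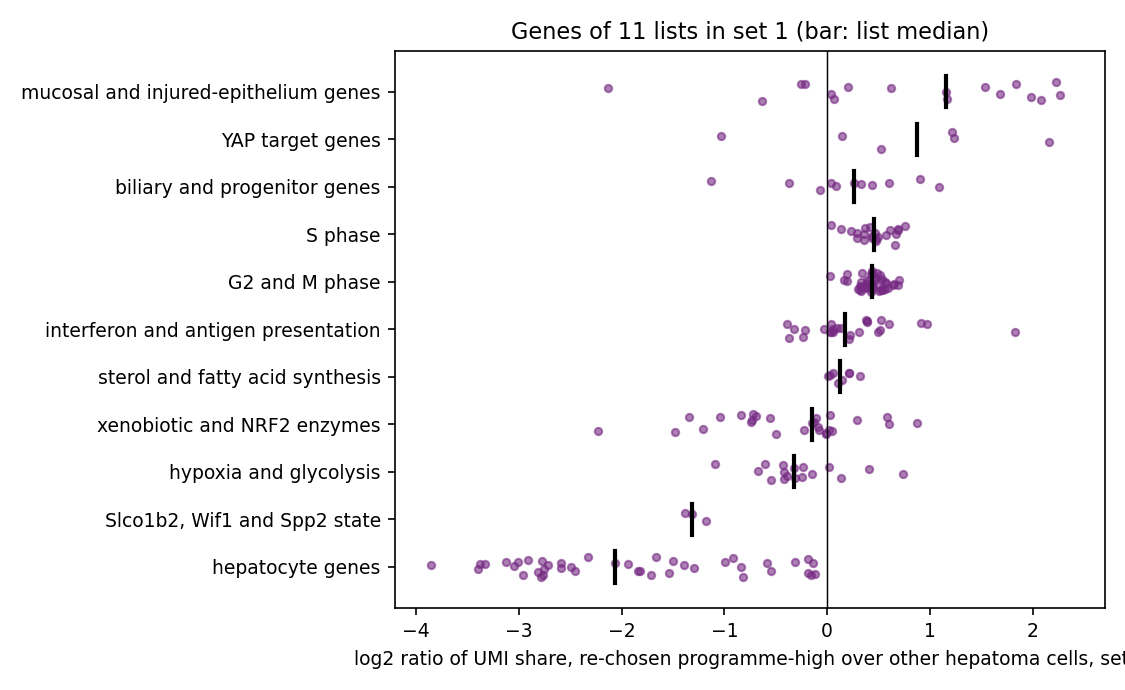
Log2 ratio of the share of UMIs (horizontal axis) between re-chosen programme-high and other hepatoma cells of set 1, 1 point per gene with at least 20 UMIs, by list, with a bar at the list's median. Hepatocyte genes lie below 0, with a median of -2.06, and genes of mucosal and injured epithelium have a median of 1.16. Serpina3k, which had no UMI in the re-chosen cells, lies off the axis at the left.

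Cells were also ranked within each set by the mean of each list, to see how often programme-high cells stood in the top 15% by it. They did so for hepatocyte genes in 1.04% of cases, against 17.4% of the other hepatoma cells, with 0.458% to 1.83% over the sets. For the genes Slco1b2, Wif1 and Spp2 the share was 3.79% against 17.0%, and ranged from 1.86% in set 5 to 7.96% in set 4. In set 4 the differences of Slco1b2, Wif1 and Spp2 were also the smallest, at -0.005, -0.003 and -0.13, with medians of -0.10, -0.22 and -0.42 over the sets. For hypoxia genes it was 7.31% against 16.3%.

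Overlap was above the rest for the cell cycle and biliary lists. For S phase, 25.6% of programme-high cells stood in the top 15%, against 13.1% of the others, and 23.1% to 30.4% over the sets. For G2 and M phase the shares were 22% and 13.8%, and for biliary genes 24.2% and 13.4%. For interferon genes they were 16.5% and 14.7%, and 21.0% and 13.9% after the second choice. For matrix genes they were 27.9% and 12.7%, and 22.9% and 13.6%. Programme-high cells had more UMIs than other hepatoma cells in set 1, and the part of depth in these shares was not tested.

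Depth was matched for the named genes of set 1. Each programme-high cell was compared with other hepatoma cells of like UMI total, in 10 bins. The ratio of Tff2 was then 9.14 in place of 8.97, that of Ly6a 4.01 in place of 3.86 and that of Ccnd1 2.17 in place of 2.20. Doublets, called with Scrublet in set 1, were 9 of 1092 programme-high cells (0.824%) and 49 of 6193 other hepatoma cells (0.791%), of 91 called in 9370 cells (0.971%). In that set 3.85% of programme-high cells were fibroblast-marked and 5.88% of the other hepatoma cells macrophage-marked, which are larger shares. Whether the marked cells are doublets that were not called was not tested.

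Across hepatoma cells, the genes that went most with the score by Spearman correlation, as the median over the 6 sets, were Ccnd1 (0.44), Aldh1a1 (0.42), Anxa3 (0.41), Sparc (0.38), Kcne3 (0.38), Fam25c (0.38), Timp2 (0.37), Eno3 (0.37), Pcolce (0.35) and Ly6a (0.35). These are descriptions over 3772 to 8297 cells a set, which share a set and differ in depth. Fibroblast-marked cells were in these correlations. With the marked cells left out, Sparc, Timp2 and Pcolce were not among the 10 highest genes, and Serpinb7 (0.35), Tceal9 (0.35) and Avil (0.35) were. Ccnd1 (0.49), Aldh1a1 (0.44) and Anxa3 (0.40) were again the first 3.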

How the data were processed

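The deposited table held 2000 genes in 53528 cells. Its values are on the natural log scale as the authors deposited them. Alignment was with STAR 2.7.2b, UMI counting with PISA and the choice of cells with barcodeRanks of DropletUtils, per the labels' protocols. The protocols name GRCh38 and the submitters' processing notes name GRCh38 and mm10, so the build behind the counts is uncertain. The later steps are not given in the sources used here. All 53528 columns belong to no known sample.

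In set 1, a UMI total was recovered for 100% of cells and 100% of nonzero values were whole UMIs within 0.01. The genes of the table held 15.0% of those UMIs. CPM is summed UMIs over summed totals. Cell names carry serial numbers and not barcodes, so shared barcodes were not counted. Tests between samples were not possible, and calls rest on size alone. Named genes were those of the score, the 25 highest and 15 lowest by median difference with 1 sign in all 6 sets, genes of the lists, and the 10 most like the score. Some genes of these are not reported here. Marker lists without a call in either choice were those of T, NK, B and plasma cells, neutrophils, dendritic cells, mast cells and basophils, platelets and endothelium. Members and lists were chosen with earlier results of these data known. Doublets were called with Scrublet in scanpy 1.11.5 (expected rate 6%). The computations were tested on simulated data. Promoter windows are from RefSeq, matched by symbol.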

Additional observations from a re-analysis of the deposited data

Results flagged for a closer look

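In 56 values over the 6 sets, 3 had a set farther from the rest than Dixon's limit for 6 values, about what chance gives at 1 in 20 groups. All 3 were in set 4. The Ppbp difference was 0.0787, the lowest of the sets. The Ccnd1 difference was 0.844, the highest. The Ambp difference was -0.460, the nearest to 0. In set 4, 17.4% of the other hepatoma cells were macrophage-marked, the highest share of the sets, and 13.1% of the programme-high cells were fibroblast-marked. The part of these cells in the values was not tested.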

How the results depend on the processing

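Counts of genes changed most with the threshold. At 0.2 natural log units 39 genes were higher and 20 lower in all 6 sets, and at a ratio of 2 there were 332 lower genes in set 1. With cells marked by stromal or immune genes left out, an alternative chosen after seeing the data, the number of genes at least 1.5 times as high in members of set 1 (the programme-high cells) was 253. With fibroblast-marked cells alone left out it was 230, and with all marked cells left out and UMI totals matched it was 259. Leaving out each set in turn gave 128 to 139 higher and 60 to 75 lower genes. These counts could only stay or rise, because a call needs every set that is kept. Of the genes left out of the score, Plekhs1 gave 0.263 and Ccdc80 0.440 with the top 25% of cells, and Tff2 gave 0.655 and Ccdc80 0.411 with the marked cells left out. The difference of Col1a2 reversed, to -0.0033 with marked cells left out and -0.0052 with fibroblast-marked cells left out, which follows from how those cells were chosen. The causes of the other changes were not tested. Of 644 values of named genes under alternatives, 616 kept their call, 23 lost it, 3 gained it and 2 reversed. Of 560 list counts, 483 stayed within 1.5 times and 77 did not. No paired analysis was possible because no cell set is tied to a labelled group. Depth is known for set 1 alone, and levels under about 1 CPM rest on few UMIs.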

Other observations

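Some genes that were neither in the score nor in a list stood with the programme in all 6 sets and with both choices of cells. Among them were Tuba1a, an alpha-tubulin (417 against 280.5 CPM in set 1), Tceal9 (688 against 510 CPM), Id3, an inhibitor of helix-loop-helix transcription factors (405 against 306 CPM), Eif6, a factor of ribosome assembly (431 against 294 CPM), and Csrp2, a LIM-domain protein (239 against 178 CPM). Their set 1 ratios were 1.49, 1.35, 1.32, 1.47 and 1.35. Nupr1, a stress-response gene, was higher (55.7 against 31.0 CPM), while Ddit3, which encodes CHOP of the unfolded protein response, had 54.6 against 106 CPM and was called lower among the re-chosen cells. Of 11 p53 targets and cell cycle arrest genes, Phlda3 (93.8 against 72.2 CPM) and Gadd45g (207 against 153 CPM) were higher and Cdkn1a lower with both choices. Perp and Plk2 were also higher among the re-chosen cells. Over all genes tested, 6.44% were higher and 3.02% lower with the first choice, and 6.64% and 2.77% with the second.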
